A study of Mus musculus with 6 samples.

Results

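The transcription factor genes that give the gut endoderm its regional identity are described here in the epithelium of the embryonic small intestine with and without *Tcf7l1*. They are the 9 genes *Cdx1*, *Cdx2*, *Pdx1*, *Gata4*, *Gata5*, *Gata6*, *Onecut1*, *Onecut2* and *Onecut3*, taken by symbol out of 23366 genes in the count tables. There were 3 wild type libraries and 3 libraries of the genotype *Shh-cre-egfp:Tcf7l1 lox/lox*, here called mutant, all from embryos at E13.5. The mutants carry Cre at the *Shh* locus, which is active in gut endoderm and removes a floxed exon of *Tcf7l1*, a repressor among the TCF/LEF factors of the WNT pathway. The other group is labelled wild type, neither group was treated, and no library with Cre and an intact *Tcf7l1* was analysed here. Each library came from 500 cells sorted for the epithelial surface protein EpCAM, with 15 PCR cycles of cDNA amplification. The replicates are described as biological, but whether each came from its own embryo is not stated, so the tests measure the spread between these libraries.

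CDX1 and CDX2 are caudal-type homeobox factors that specify intestinal as against gastric epithelium, and CDX2 is the main one of the pair in the endoderm. PDX1 is a ParaHox homeobox factor of the duodenum, the antrum of the stomach and the pancreas. GATA4, GATA5 and GATA6 are zinc finger factors of endoderm. GATA4 is kept out of the ileum in the adult and holds jejunal identity, whereas GATA6 is found along the whole intestine. ONECUT1 (HNF6), ONECUT2 and ONECUT3 carry a cut domain and a homeodomain and act in liver, pancreas and anterior gut.

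*Pdx1* and *Cdx2* are neighbours in the ParaHox cluster. *Pdx1* (ENSMUSG00000029644) lies on the plus strand of chromosome 5 of mm9 from 148081535 to 148089584, and *Cdx2* (ENSMUSG00000029646) on the minus strand from 148112381 to 148118846, with 22796 bases between them. *Gata4* (ENSMUSG00000021944, chromosome 14, 63817759 to 63890529), *Gata5* (ENSMUSG00000015627, chromosome 2, 180059838 to 180069404), *Onecut1* (ENSMUSG00000043013, chromosome 9, 74709728 to 74737591) and *Onecut3* (ENSMUSG00000045518, chromosome 10, 79957651 to 79980003) lie apart from them, as do *Cdx1*, *Gata6* and *Onecut2*. All 9 genes are autosomal. In the mm9 annotation, exons of *Gm14318* on the opposite strand overlap 7.87% of the exon bases of *Gata5*, and those of a lincRNA gene overlap 1.82% of *Gata6*. On the same strand *Gm16551* overlaps 22.6% of *Onecut1*.

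RefSeq promoter sequences of build GRCm38.p6 were held for 4 of the 9 members, *Cdx2*, *Pdx1*, *Gata5* and *Onecut1*. They are shown for the 3 that were called lower in the mutants, and the *Pdx1* stretch (112 bases) is shorter than those of *Cdx2* (229) and *Gata5* (230). The *Pdx1* stretch is chr5:147269847-147269958 on the plus strand, the *Cdx2* stretch chr5:147307271-147307499 on the minus strand and the *Gata5* stretch chr2:180334700-180334929 on the minus strand. Each reads 5′ to 3′ from 250 bases before the RefSeq start and ends before the most upstream start in the mm9 transcripts. Capitals mark CCAAT boxes (CCAAT or its reverse complement) and E-boxes (CACGTG).
Pdx1: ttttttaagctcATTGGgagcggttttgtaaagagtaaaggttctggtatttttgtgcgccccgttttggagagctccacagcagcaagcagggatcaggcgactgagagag
Cdx2: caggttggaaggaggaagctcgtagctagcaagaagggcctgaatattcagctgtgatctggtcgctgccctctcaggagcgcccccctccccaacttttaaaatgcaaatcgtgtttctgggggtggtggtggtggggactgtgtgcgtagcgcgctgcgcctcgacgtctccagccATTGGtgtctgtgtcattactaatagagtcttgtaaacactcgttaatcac
Gata5: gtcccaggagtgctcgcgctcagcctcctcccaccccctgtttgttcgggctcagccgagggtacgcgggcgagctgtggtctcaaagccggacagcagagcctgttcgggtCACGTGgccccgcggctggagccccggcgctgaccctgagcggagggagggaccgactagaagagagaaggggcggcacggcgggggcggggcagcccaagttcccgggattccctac

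None of the 4 windows of 250 bases before the RefSeq start held the letters searched on both strands for TCF/LEF (CTTTGAT or CTTTGAA). The same held for the letters of GATA sites (AGATAA or TGATAA) and of CDX sites (TTTATTG or TTTATGG). It also held for the ONECUT letters (ATCAAT), and for a homeobox core (TAATTA). Over 32851 windows of the same length, 7.48%, 16.6%, 6.51%, 6.72% and 4.84% held a match to TCF/LEF, GATA, CDX, ONECUT and the homeobox core, in that order. An E-box stood 138 bases before the start of *Gata5*, 51 before that of *Pdx1*, in the part not shown, and 232 before that of *Onecut1*, against 6.02% of all windows. A CCAAT box was found in the windows of *Pdx1*, with 2, and *Cdx2*, with 1, against 33.8% of all windows. The E-box and CCAAT letters were chosen after the windows had been read. The other CCAAT box of *Pdx1* stood 74 bases before the start, past the shown stretch. The GC content was 54.8% in the *Pdx1* window, 55.2% in that of *Cdx2*, 70.0% in that of *Gata5* and 71.6% in that of *Onecut1*.

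The total count lay between 18216537 and 20397278 per library, and 12501 genes passed the filter on low counts and were tested. *Tcf7l1* fell from 438 ± 64.1 normalized counts in wild type to 49.1 ± 21.1 in mutant libraries (mean ± SD, n = 3). The epithelial markers *Epcam*, *Vil1* and *Cdh17* were found in all 6 libraries and were not called between the groups. Of the keratin genes, *Krt18* (22437 ± 1076 and 15431 ± 746 normalized counts in wild type and mutants) was called lower, except without wild type 3 or mutant 3. *Krt19* (log2 fold change -0.49, edgeR adjusted p = 2.8e-05) and *Krt8* (-0.32, 0.0010) fell short of the minimum change, and *Krt19* was called lower without wild type 1 or mutant 1, with library size as the only scaling and with the filter at a mean count of 50. *Cdh1* (4331 ± 661 and 2925 ± 303) was called lower, except without wild type 2 or mutant 2 and with the gene length correction. *Xist* had 0 counts in each wild type library and 229 to 424 in the mutant libraries, and 4 Y-linked genes had 0 counts in each mutant library. The sex-linked genes, the Cre allele and the loss of *Tcf7l1* separate the same libraries and cannot be told apart. *Shh*, which carries the Cre insertion, fell from 481 ± 65.8 to 198 ± 22.6 normalized counts.

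In wild type epithelium, the CDX and GATA genes were the most abundant members and *Onecut1* and *Onecut3* were close to absent. Levels of different genes were compared as normalized read count per kilobase of exon. This scale gave 575 ± 124 for *Cdx1* and 496 ± 66.4 for *Gata4* (mean ± SD, n = 3). The ranges of *Cdx1* and *Gata4* overlapped, although *Cdx1* was above *Gata4* in 3 of 3 libraries. The next levels per kilobase were 352 ± 65.4 for *Cdx2* and 344 ± 68.4 for *Gata6*, which did not differ beyond their spread.

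Below these came *Gata5* at 254 ± 24.9 and *Onecut2* at 126 ± 14.8 per kilobase. *Pdx1* followed at 48.4 ± 3.62, and each of these steps down, from *Gata6* to *Pdx1*, left no overlap between the ranges of neighbours in the order. *Onecut3* had 3.99 ± 4.16 and *Onecut1* 1.77 ± 1.58, with overlapping ranges. Against 11874 tested genes with a known exon length, the wild type level of *Cdx1* was above 77.6% of genes, that of *Gata4* above 75.3%, that of *Cdx2* above 69.1% and that of *Pdx1* above 32.4%. *Onecut2*, whose annotated exons cover 15906 bases, was above 49.7%. *Cdx1* has 1750 exon bases, so the per-length order of these genes rests on the annotation. With the longest transcript in place of all exons, the wild type level of *Gata4* was 571 per kilobase, close to that of *Cdx1*. In the mutants the order was the same down to *Pdx1*, except that *Gata6* (342 ± 18.9) stood above *Cdx2* (219 ± 29.3).

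**Figure D1:**
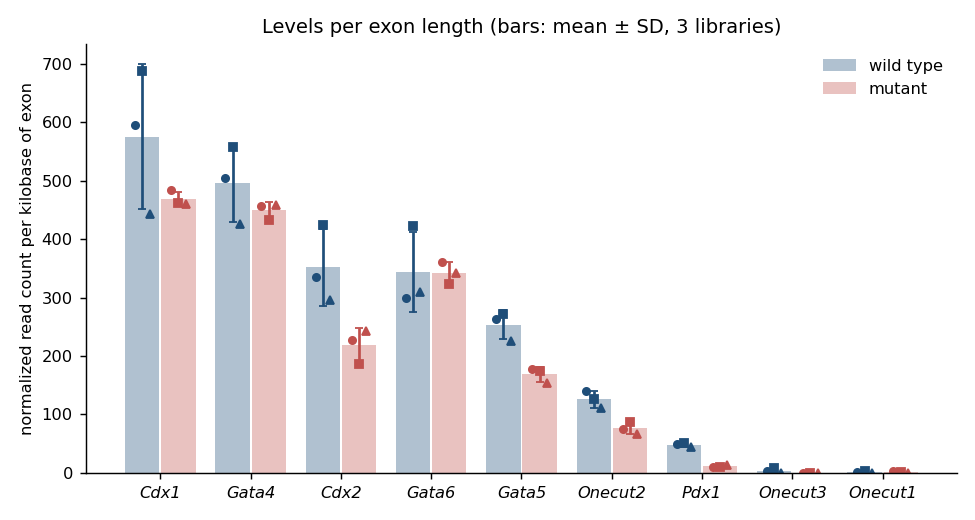
Normalized read count per kilobase of exon for the 9 members, in order of the wild type mean. Bars are means with SD over 3 libraries (blue wild type, red mutant) and points are libraries 1 (circle), 2 (square) and 3 (triangle). *Cdx1* and *Gata4* lead in both groups, and *Cdx2* stood at 352 in wild type and 219 in mutant libraries.

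The wild type libraries differed among themselves in the genes at the top of this order. Wild type 2 was the highest of the 3 for *Cdx1*, *Cdx2*, *Gata4*, *Gata5*, *Gata6* and *Pdx1*, and wild type 3 the lowest for each of these but *Gata6*. The coefficient of variation over the wild type libraries was 21.5% for *Cdx1*, 19.9% for *Gata6*, 18.6% for *Cdx2* and 13.4% for *Gata4*, where the median over 10565 genes averaging 50 or more normalized counts was 10.4%. Over the mutant libraries it was 2.73%, 5.51%, 13.4% and 3.29% for the same genes, against a median of 8.51%.

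In the mutants, 4 of the 7 members tested were downregulated and 0 were upregulated. The downregulated genes were *Pdx1*, *Onecut2*, *Cdx2* and *Gata5*, and *Cdx1*, *Gata4* and *Gata6* did not pass the test. Adjusted p values came from the quasi-likelihood (QL) test of edgeR, with the adjustment of Benjamini and Hochberg over the whole tested table. A gene was called where its adjusted p was under 0.01, its log2 fold change (log2FC, mutant against wild type) was 0.5 or more in size, and its normalized counts averaged 50 or more. By this rule 5.83% of all tested genes were lower and 2.78% higher. The 4 genes are also those whose groups did not overlap, which held for 43.0% of all tested genes. The median log2 fold change was -0.59 over the 7 members and -0.04 over all tested genes. At an unadjusted p under 0.05, 5 members were lower, with *Cdx1* the addition, and 0 higher. The share of all genes at that p was not taken, so such counts, here and for the lists below, have no background. DESeq2 called 4 members lower and 0 higher, where over all 17112 genes with a count it called 789 lower and 410 higher.

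*Pdx1* had the largest log2 fold change of the 7 tested members. Its normalized counts were 216, 220.0 and 191 in the wild type libraries, here and throughout in the order 1, 2 and 3, against 46.6, 42.6 and 57.5 in the mutants. All wild type libraries were above all mutant libraries, and the mutant level was 23.3% of that in wild type (exact 95% counting interval 19.3% to 28.1%). Such intervals, from the summed counts, cover counting error only, since the reads carry no molecular identifiers. The log2FC was -2.09 (SE 0.24, edgeR QL adjusted p = 1.8e-05), and it lay between -2.22 and -1.88 in the 13 other fits, all of which called *Pdx1*. In these sorted bulk samples, fewer cells that express a gene and less of its RNA per cell cannot be told apart.

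*Onecut2*, the abundant ONECUT gene of this epithelium, had 2223, 2024 and 1754.5 normalized counts in the wild type libraries against 1189.7, 1378 and 1065 in the mutants. The groups did not overlap. The libraries averaged 2001 ± 235 in wild type against 1211 ± 157 in the mutants (log2FC -0.72, SE 0.11, edgeR QL adjusted p = 2.5e-04). All 13 other fits called *Onecut2*, at log2 fold changes from -0.83 to -0.56. Of its relatives, *Onecut3* had 15, 43 and 2 raw counts in the wild type libraries against 2, 2 and 0 in the mutants. Wild type 2 held most of the reads of *Onecut3*, and wild type 3 was no higher than mutant 1 and 2. *Onecut1* had 3, 8 and 1 raw counts in the wild type libraries against 6, 4 and 0 in the mutants, near the floor in both groups.

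Neither *Onecut1* nor *Onecut3* passed the filter on low counts, so 2 of the 9 members were not tested. With no filter, edgeR gave *Onecut3* a log2 fold change of -3.61 (SE 1.20, adjusted p = 0.0226) and *Onecut1* one of -0.09 (SE 1.51, adjusted p = 0.98). Leaving out 1 library let *Onecut3* pass the filter in 4 fits, with adjusted p values between 0.0080 and 0.0917. The 4 mutant counts of *Onecut3* put its level at 7.57% of that in wild type (exact 95% counting interval 2.0% to 20.4%). With so few counts, no difference in *Onecut1* was detectable.

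**Figure D2:**
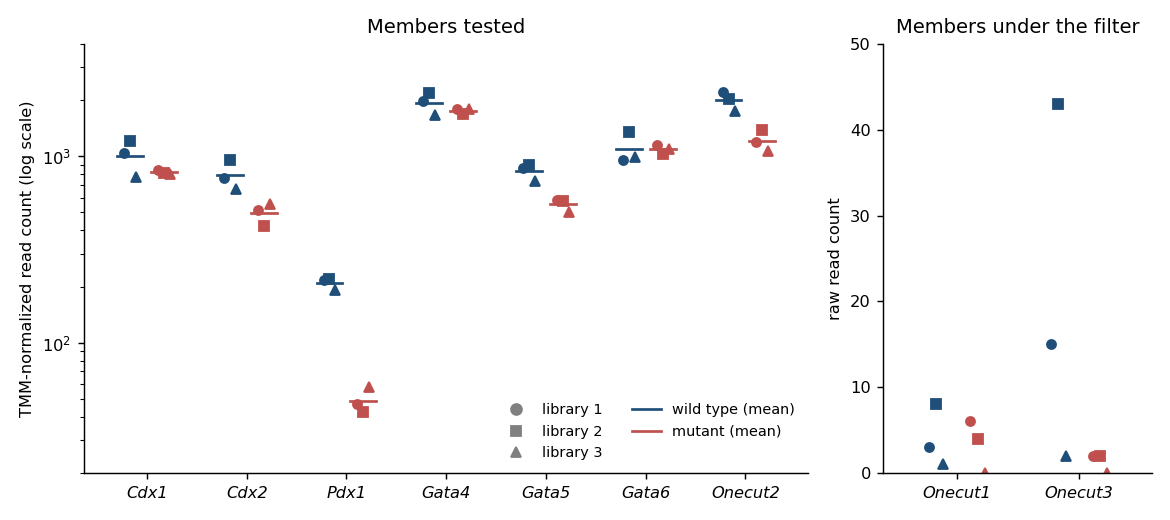
Read counts of the members in each library, with blue for wild type, red for mutant, and circle, square and triangle for libraries 1, 2 and 3. On the left, TMM-normalized counts of the 7 tested members on a log axis with group means as lines, where the groups of *Cdx2*, *Pdx1*, *Gata5* and *Onecut2* do not overlap. On the right, raw counts of *Onecut1* and *Onecut3*, which reach 43 in wild type 2.

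The CDX genes differed in their call. *Cdx2* had 759.6, 958 and 669 normalized counts in the wild type libraries against 513, 422 and 551 in the mutants. Its groups did not overlap, and the gap between wild type 3 and mutant 3 was smaller than the wild type SD. The mean fell from 796 ± 148 to 495 ± 66.3 (log2FC -0.68, SE 0.15, edgeR QL adjusted p = 0.0035), or to 62.1% of the level in wild type. The call of *Cdx2* was lost without wild type 1 (adjusted p = 0.0114), wild type 2 (0.0287), mutant 1 (0.0127) or mutant 2 (0.0216), with log2 fold changes from -0.72 to -0.53 in those fits.

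*Cdx1* had 1042, 1204 and 775 normalized counts in the wild type libraries against 846, 809 and 805 in the mutants. Wild type 3 was below every mutant library, so the groups overlapped. The libraries averaged 1007 ± 217 in wild type against 820.2 ± 22.4 in the mutants (log2FC -0.30, SE 0.14, edgeR QL adjusted p = 0.12), and no fit called it. Without wild type 3, *Cdx1* had a log2 fold change of -0.44, the largest of the fits (edgeR QL adjusted p = 0.0070). That fit passed the p threshold of 0.01 and fell short only of the minimum change of 0.5. Without wild type 2, *Cdx1* had -0.15, the smallest (adjusted p = 0.51).

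Of the GATA genes, *Gata5* was called lower and *Gata4* and *Gata6* were not. *Gata5* had 862, 893 and 738 normalized counts in the wild type libraries against 581, 574 and 502 in the mutants, with no overlap. The mean fell from 831 ± 81.7 to 552 ± 43.6 (log2FC -0.59, SE 0.12, edgeR QL adjusted p = 0.0028). The call of *Gata5* was lost without wild type 1 (adjusted p = 0.0166), wild type 2 (0.0182) or mutant 3 (0.0179), and with a correction for gene length (log2FC -0.42, adjusted p = 0.0136).

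*Gata4* had 1976, 2181 and 1665 normalized counts in the wild type libraries against 1788, 1690.0 and 1792 in the mutants. The mutant values all lay within the wild type range (log2FC -0.14, SE 0.10, edgeR QL adjusted p = 0.30). *Gata6* had 957, 1351 and 990.4 in the wild type libraries against 1153, 1033 and 1095 in the mutants. These too lay within the wild type range (log2FC -0.01, SE 0.13, edgeR QL adjusted p = 0.97), and the sign of the difference in *Gata6* changed with the scaling and with the libraries used. The exact 95% counting interval of the mutant level as a share of wild type ran from 87.1% to 93.9% for *Gata4* and from 94.7% to 104% for *Gata6*.

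**Figure D3:**
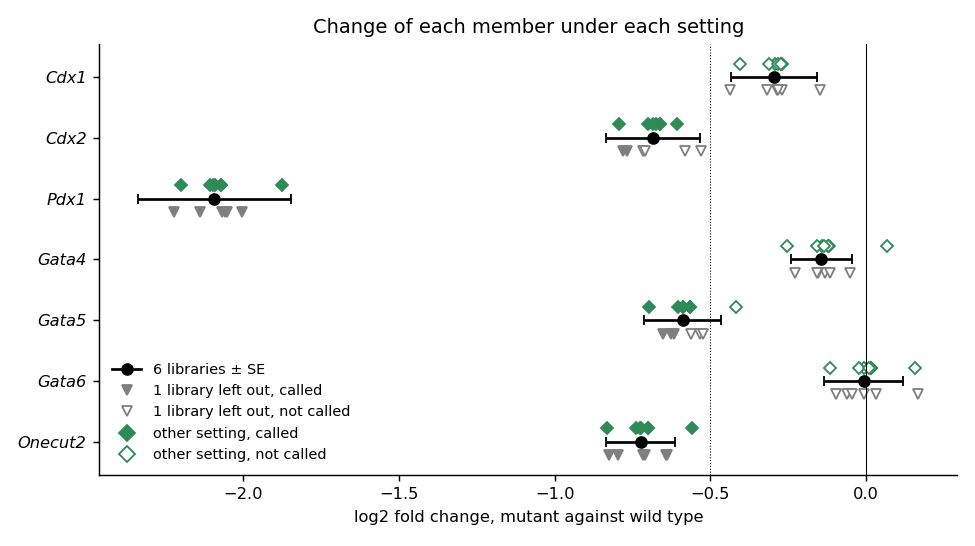
Log2 fold change of mutant against wild type libraries for the 7 tested members. Black points are the fit on 6 libraries with its SE, grey triangles the fits with 1 library left out and green diamonds the fits with another scaling, filter, tool or block, filled where the gene was called, and the dotted line marks the threshold of -0.5. *Pdx1* and *Onecut2* are filled throughout, while *Cdx2* and *Gata5* are open in 4 fits each.

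Whether related members changed by different amounts was tested on the log2 ratio of 2 genes within each library, for 6 pairs, with an exact 2-sided permutation test over libraries. With 3 libraries against 3, this exact test cannot go below p = 0.1. The log2 ratio of *Cdx1* to *Cdx2* was 0.33 ± 0.12 in wild type against 0.73 ± 0.19 in the mutants, without overlap (p = 0.1, 0.15 after Benjamini-Hochberg adjustment over the pairs, exact test). Per kilobase, *Cdx1* was 1.63 times as abundant as *Cdx2* in wild type and 2.14 times in mutant libraries. *Pdx1* relative to *Cdx2* stood at -1.87 ± 0.18 in wild type against -3.10 ± 0.09 in the mutants on the log2 scale, again without overlap (exact p = 0.1, adjusted 0.15). The difference of these log2 ratios, mutant minus wild type, was -1.24 for the ParaHox neighbours and 0.40 for the CDX genes. With a pseudocount of 2 CPM it was -0.86 and 0.38, and with raw counts plus 1 it was -1.40 and 0.40. The size of the *Pdx1* to *Cdx2* difference thus rests on the pseudocount, while its sign does not.

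For the GATA genes, the log2 ratio of *Gata5* to *Gata6* was -0.39 ± 0.22 in wild type against -0.97 ± 0.14 in the mutants, without overlap (exact p = 0.1, adjusted 0.15). *Gata4* relative to *Gata6* gave 0.82 ± 0.19 and 0.68 ± 0.04, with overlap (exact p = 0.3, adjusted 0.36). Of the summed level of the 3 GATA genes per kilobase, *Gata5* held 23.3% ± 1.45 in wild type against 17.6% ± 1.40 in the mutants, *Gata4* 45.4% ± 1.69 and 46.8% ± 1.09, and *Gata6* 31.4% ± 2.96 and 35.6% ± 0.799. The ratios with *Onecut1* and *Onecut3* rest on a few counts. *Onecut1* to *Onecut2* was -7.24 ± 0.31 in wild type against -6.55 ± 0.29 in the mutants (exact p = 0.1, adjusted 0.15), a difference of 0.69 that was 0.56 with raw counts plus 1 in place of CPM plus 0.5 (exact p = 0.8). *Onecut2* to *Onecut3* was 6.38 ± 0.96 and 6.77 ± 0.10 (exact p = 0.7, adjusted 0.7), a difference of 0.39 that was -0.12 without wild type 2, -0.25 with a pseudocount of 2 CPM and 1.72 with raw counts plus 1, so its sign and size rest on these choices.

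**Figure D4:**
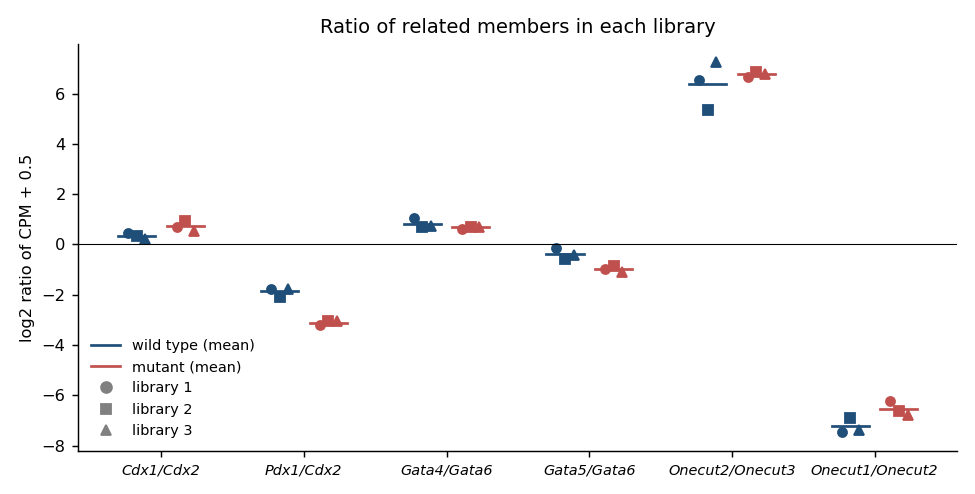
Log2 ratio of the CPM (plus 0.5) of 2 related members in each library, with lines for the group means (blue wild type, red mutant) and circle, square and triangle for libraries 1, 2 and 3. The groups separate for *Cdx1*/*Cdx2*, *Pdx1*/*Cdx2* and *Gata5*/*Gata6*, and on this scale for *Onecut1*/*Onecut2*, where *Onecut1* had 0 to 8 raw counts and raw counts plus 1 gave an exact p of 0.8. The ratio *Gata4*/*Gata6* overlaps, with means of 0.82 and 0.68.

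Across the 6 libraries, the log2 CPM of *Cdx1* ran most closely with that of *Gata4* among the members (Pearson's r = 0.977), and *Gata5* with *Onecut2* (0.974). *Gata6* ran with *Pdx1* at 0.014 and with *Onecut2* at -0.065. These correlations are a description over 2 groups of 3 libraries, which share depth and scaling, so genes that differ between the groups tend to run together. Among 10564 other genes averaging 50 or more normalized counts, those most like *Pdx1* were *Car2*, *Serpina1e* and *Nnat*, with r between 0.997 and 0.998, and 973 genes reached 0.9. Those most like *Gata6* were *Igf2bp1* (r = 0.998), *Phf8* and *Tmem87b*, and 38 genes reached 0.9. *Cdx1* was nearest to *Bcl9*, *Eef2* and *Ajuba*, *Gata4* to *Parp9*, *Slc25a10* and *Aff4*, *Cdx2* to *Egln2*, *Ss18* and *Lmnb1*, *Gata5* to *Fgfr2*, *Tacc2* and *Rps6ka4*, and *Onecut2* to *Yipf3*, *Tsc2* and *Rin3*.

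The PBX and MEIS genes encode homeodomain proteins that bind DNA together with PDX1 and other homeobox factors. Of 6 such genes, all tested, 3 were called lower, *Meis2* and *Meis1* among them, and 0 higher (also 0 at an unadjusted p under 0.05 and with DESeq2), with a median log2 fold change of -0.60. *Meis2* had 238, 276 and 260.4 normalized counts in the wild type libraries against 34.2, 41.5 and 8.85 in the mutants (log2FC -3.18, SE 0.36, edgeR QL adjusted p = 1.1e-05). Every mutant library was below every wild type library for *Meis2*. *Meis1* fell from 706 ± 49.2 to 459 ± 40.3. The call of *Meis1* was lost without wild type 1, mutant 1 or mutant 2 and with the gene length correction, at adjusted p values from 0.0129 to 0.0260. *Pbx2* (log2FC -0.57, adjusted p = 0.071), *Pknox1* (-0.05, 0.83) and *Pbx3* (0.21, 0.80) were not called.

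Factors of the pancreas and duodenum that act with PDX1 and ONECUT1 were followed in a list of 10 genes, of which 6 were tested, 2 called lower and 0 higher (also 0 at an unadjusted p under 0.05 and with DESeq2), with a median of -0.70. *Foxa2*, a pioneer factor of endoderm, fell from 286 ± 14.6 to 37.1 ± 17.7 normalized counts. *Sox9*, a factor of progenitor cells, fell from 3205 ± 489.8 to 1955 ± 62.1, a call that the gene length correction ended (log2FC -0.495, adjusted p = 0.0012). *Neurog3*, the endocrine progenitor factor, had 3, 179 and 90 raw counts in the wild type libraries against 0, 6 and 2 in the mutants and did not pass the filter. *Ptf1a* and *Nkx6-1*, which mark pancreatic progenitors, had 0 counts in every library.

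Among the further GATA family genes and their FOG cofactors, *Gata1* and *Zfpm2* had 0 counts in every library, *Gata2* had 1 count in each group, and *Gata3* had 6, 6 and 7 raw counts in wild type and 0 in the mutant libraries. *Zfpm1* (FOG1), which binds GATA proteins, fell from 809 ± 113 to 566 ± 19.4 (log2FC -0.52, SE 0.13, edgeR QL adjusted p = 0.0077), at the edge of the threshold. No gene of this list was higher, with 0 at an unadjusted p under 0.05 and 0 with DESeq2. The call of *Zfpm1* was lost with DESeq2 (log2FC -0.49) and RLE normalization (-0.49), with the gene length correction (-0.33), and without wild type 1 (-0.44), wild type 2 (-0.48) or any 1 mutant library (-0.49 to -0.54, adjusted p from 0.022 to 0.034). *Trps1* was tested and not called (-0.80, adjusted p = 0.46). Of 4 further CUT homeobox genes, 0 were called in either direction. At an unadjusted p under 0.05, 1 was lower and 0 higher, and DESeq2 called 0.

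Intestinal genes that depend on CDX2 or carry CDX sites did not pass the call. Of 10 in the list, 7 were tested and 0 called in either direction, also with DESeq2, while 4 were lower and 1 higher at an unadjusted p under 0.05. Their median log2 fold change was -0.20. *Isx*, an intestinal homeobox factor, had 6257 ± 259.1 in wild type against 4473 ± 273 in the mutants, with no overlap, and a log2 fold change of -0.48 (adjusted p = 1.8e-04), just under the threshold. *Isx* was called without wild type 2, mutant 2 or mutant 3 and with library size as the only scaling. *Cdh17*, an intestinal cadherin, had a log2 fold change of 0.14 (adjusted p = 0.11), *Gucy2c*, the guanylin receptor, -0.20 (0.057), *Hnf4a* -0.17 (0.31) and *Mep1a* -0.44 (0.043). *Vdr*, the vitamin D receptor, had 24, 21 and 12 raw counts in the wild type libraries against 5, 0 and 3 in the mutants (-2.60, adjusted p = 0.035), too few for a call. *Sis*, *Lct* and *Muc2*, which belong to differentiated cells, had at most 15 raw counts in any library.

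Genes of the anterior and posterior intestine were set beside the members, since the factors differ along this axis. Of 10 anterior genes, 7 were tested, 2 called higher and 0 lower (also 0 at an unadjusted p under 0.05 and with DESeq2), with a median of -0.21. *Fabp1* rose from 1547 ± 176 to 2712 ± 90.0 and *Apoa4* from 245 ± 56.9 to 468 ± 33.1, both of which serve fat absorption. Of 8 posterior genes, *Osta* and *Ostb* were not analysed here, 2 of the others were tested, and 0 were called in either direction, also with DESeq2, with 1 lower and 0 higher at an unadjusted p under 0.05. *Guca2a*, which encodes guanylin, had a log2 fold change of -0.86 (adjusted p = 0.19). *Fabp6*, *Slc10a2*, *Hoxa13* and *Hoxd13* had at most 6 raw counts in any library.

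**Figure D5:**
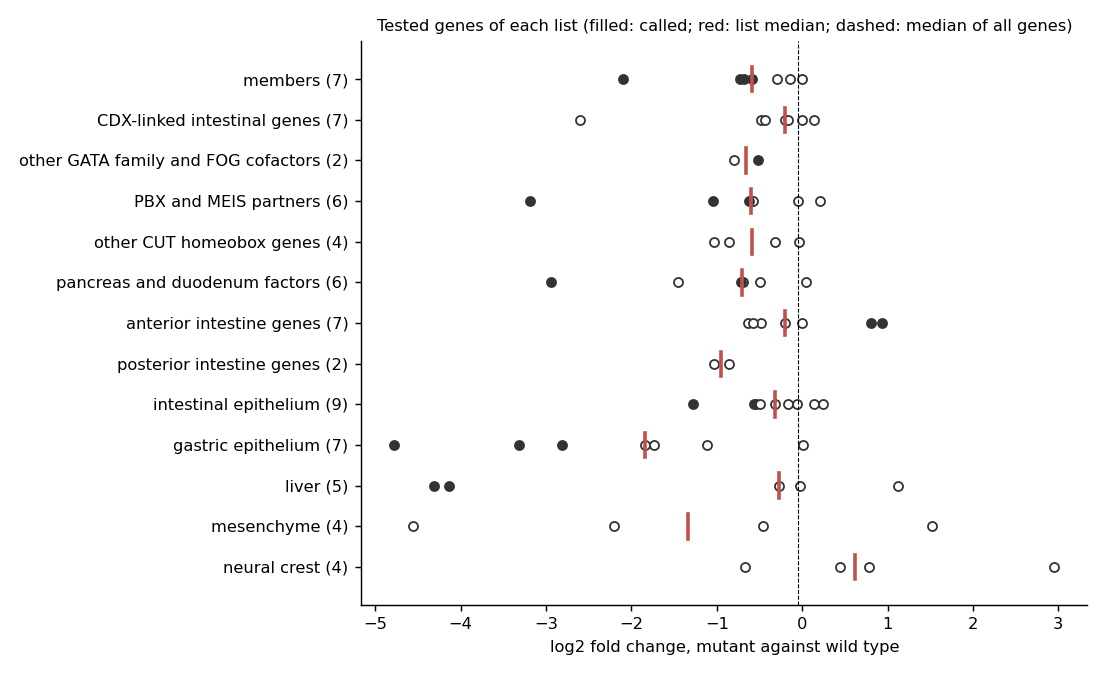
Log2 fold change, mutant against wild type, of the tested genes of each list, with the number tested in brackets. Filled points passed the call, red bars are list medians and the dashed line is the median of all tested genes, -0.04. The median of the members is -0.59 and that of the gastric epithelium list -1.84.

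Some markers of tissues next to the intestine differed between the groups. Of 11 genes of gastric epithelium, a tissue whose antrum is part of the *Pdx1* domain, 7 were tested. *Nkx6-3*, *Cldn18* and *Ctse* were called lower and 0 higher (also 0 at an unadjusted p under 0.05 and with DESeq2). Not called were *Gkn2* (log2FC -1.84, edgeR QL adjusted p = 0.017), *Tff2* (-1.74, 0.018), *Anxa10* (-1.12, 0.26) and *Gkn1* (0.004, 0.996). The summed level of the list was between 1739 and 1786 normalized counts in wild type, against 219 to 263 in the mutants, and *Sox2*, the defining foregut factor, had 12, 7 and 11 raw counts in wild type and 0 in the mutant libraries. No gene of this list was at 0 in all libraries. Of 6 liver genes, 5 were tested, *Serpina1a* and *Fgb* were called lower and 0 higher, and *Alb* had 0 to 6 raw counts. The call of *Fgb* was lost without any 1 wild type library, where it averaged under 50 normalized counts. *Afp* (log2FC -0.28, edgeR QL adjusted p = 0.038), *Ttr* (-0.03, 0.89) and *Apoa2* (1.13, 0.23) were not called. The summed liver level ran from 4351 to 5246 in wild type, against 3269 to 3680 in the mutants, most of it from *Afp* and *Ttr*. The part of these tissues in the lower level of *Pdx1*, *Onecut2*, *Cdx2* and *Gata5* was not tested.

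Of 8 pancreas genes 6, among them *Ptf1a*, *Ins1*, *Ins2* and *Gcg*, had 0 counts in every library. The summed pancreas level, nearly all of it from *Cela1*, was 117 to 127 in wild type, against 171 to 188 in the mutants. The blood list had 0 counts in wild type and 3 in the mutants, all in mutant 3. Of 5 endothelial genes, *Cdh5*, *Kdr*, *Tek* and *Cldn5* were at 0 throughout, and *Pecam1* summed to 0 to 20.7 normalized counts. The 9 mesenchyme genes summed to 1338 to 1612 in wild type, against 1041 to 1468 in the mutants, mostly *Vim*, with *Col1a1* and *Pdgfra* at no more than 23 raw counts in any library, and 0 of 4 tested were called. *Acta2*, the smooth muscle actin gene, had 74, 113 and 92 raw counts in the wild type libraries against 92, 161 and 442 in the mutants (log2FC 1.52, edgeR QL adjusted p = 0.014), and was called higher with no filter and without mutant 1. *Barx1*, a factor of stomach mesenchyme, had 27, 70 and 19 raw counts in the wild type libraries against 4, 0 and 0 in the mutants. The 6 neural crest genes summed to 56.1 to 103 and 90.5 to 222, with 0 of 4 tested called. For these 2 lists DESeq2 called 0 as well, while 3 mesenchyme genes were lower and 1 higher, and 0 neural crest genes lower and 1 higher, at an unadjusted p under 0.05.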

How the data were processed

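RNA of 500 sorted epithelial cells per library was sequenced in 3 wild type and 3 mutant libraries, grouped by the genotype label. The authors' alignment was to mm9, with a count of uniquely mapped reads for each gene, and the submitters' processing notes name STAR 2.5.2b, featureCounts 1.5.1, DESeq2 1.18.1 and deepTools. The deposited values are raw counts per gene without normalization. The strand setting of the counting is not given in the sources used here. Total counts of 18216537 to 20397278 per library set the precision, and reads amplified over 15 PCR cycles without molecular identifiers are not independent molecules.

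The test on these counts was that of edgeR 4.0.16 under R 4.3.3 (filterByExpr, TMM factors, glmQLFit and glmQLFTest), with genotype as the only term and Benjamini-Hochberg adjustment over 12501 genes. The call needed an adjusted p under 0.01, a log2 fold change of 0.5 or more in size and 50 or more normalized counts on average. A normalized count is the TMM-scaled CPM times the mean effective library size, and the SE is the log2 fold change divided by the square root of F. The test was checked on simulated data with log2 changes of 1 and 2 in size, of which edgeR recovered 92% and 98%. These data had a common dispersion for all genes and no smaller changes, such as those of *Onecut2*, *Cdx2* and *Gata5*. Ratios used log2 of CPM plus 0.5 and exact permutation tests in scipy 1.17.1. Figures were drawn with matplotlib 3.10.9 in Python 3.11.15.

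Positions and exon lengths came from the mm9 annotation, which named 90.9% of the genes, and promoters from RefSeq. Named in the text are the members, the list genes that passed the call or that a sentence on a list needed, and for each tested member the 3 genes with the highest Pearson's r. The members and lists were chosen with earlier results of these data known. As alternatives, DESeq2 1.42.0 was run, and edgeR was run with RLE normalization, library size scaling, other filters, a gene length correction, other thresholds, a replicate block and leaving out each library. Values of some list genes are not reported here.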

Additional observations from a re-analysis of the deposited data

How the results depend on the processing

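Of the members, 4 were called lower with 6 libraries and between 2 and 4 with 1 left out, the 2 being found without wild type 1 and without wild type 2, and 1 was called where a log2 fold change of 1 or more in size was asked for. In no alternative was a member called higher. Of the genes in the 8 pathway lists, 6 were called lower with 6 libraries, 3 to 6 with 1 left out (3 without mutant 1), 2 with the gene length correction, 3 where a log2 fold change of 1 or more in size was asked for and 11 at an adjusted p under 0.05 with no minimum fold or count. Of these genes, 2 were higher, and 0 where a log2 fold change of 1 or more in size was asked for. The log2 fold change of *Gata4* was 0.067 with the gene length correction. That of *Gata6* was 0.017 with DESeq2, 0.015 with RLE normalization, 0.16 with the gene length correction and 0.0087 with the replicate block, and between -0.098 and 0.17 with 1 library left out. The *Onecut2* to *Onecut3* ratio differed by -0.25 with a pseudocount of 2 CPM, by 1.72 with raw counts plus 1 and by -0.12 to 0.82 with 1 library left out. The cause was not tested.

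Over all genes, 729 were lower and 348 higher. The counts were 958 and 200 with library size as the only scaling (median log2 fold change shifted by -0.11) and 394 and 711 with the gene length correction (shifted by 0.13). They were 405 and 261 without wild type 1, 406 and 260 without wild type 2, and 463 and 280 without mutant 2. Without wild type 3 they rose to 867 and 516. Calls that were higher made up 32.3%, and 17.3% and 64.3% under the 2 scalings. The replicate block called 4 members, 691 genes lower and 339 higher. Deviations of same-numbered libraries correlated at 0.0097, -0.045 and -0.018, and those of differently numbered ones at -0.025 to 0.042. No deviation shared by number was seen, but with 3 libraries per group this cannot show whether the numbers are a pairing. The block ended the call of *Zfpm1* (edgeR QL adjusted p = 0.0136). *Onecut1* had 12 raw counts summed over the wild type libraries and 10 over the mutants, too few to pass the filter. *Onecut3* had a wide spread in wild type (15, 43 and 2 raw counts) and averaged under 50 normalized counts in every fit.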

Other observations

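The neighbours of *Pdx1* and *Cdx2* in the ParaHox region were read after their values were seen. *Gsx1*, the remaining ParaHox gene of the cluster, had 0 counts in every library. *2210019I11Rik*, which lies on the opposite strand and reaches over the start of *Pdx1* without sharing exon bases with it, had 64.7, 70.9 and 54.2 normalized counts in the wild type libraries, against 35.2, 38.3 and 34.3 in the mutant ones. These groups did not overlap, and the log2 fold change was -0.81 (SE 0.37, edgeR QL adjusted p = 0.115). *Prhoxnb* had 17.2 ± 4.49 and 21.1 ± 9.90 (log2 fold change 0.29, adjusted p = 0.75), and *Flt3* had at most 2 raw counts in any library. *Gsx2* had 0 counts throughout, and *Cdx4*, the X-linked caudal gene, had 5 raw counts in wild type 3 and 0 in the other libraries.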
